A study of Mus musculus with 16 samples.

Results

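The 6 genes of the beta-catenin destruction complex that were examined were Apc, Axin1, Ctnnb1, Gsk3b, Csnk1a1 and Btrc, and the 4 genes of the TCF/LEF family were Tcf7, Lef1, Tcf7l1 and Tcf7l2. They were taken by name, and all 10 were found among the 46078 genes of the count tables and passed the filter on low counts that kept 16510 genes. Mouse intestinal organoids, closed epithelial structures grown from crypts in a gel matrix, gave 16 RNA libraries. All came from the C57BL6 strain and carried Lgr5-EGFP-IRES-CreERT2, a tamoxifen-dependent Cre recombinase made from the stem cell gene Lgr5. Mutant organoids also carried Apcfl/fl, in which part of Apc lies between recombination sites, and it was recombined in culture with 4OH-tamoxifen. Villin-CreERT2.Apcfl/fl mice are named in the protocol as well, without saying which libraries came from them. Wild type organoids carried the LeGO-C2 construct with mCherry and mutant organoids the LeGO-V2 construct with Venus. All media held R-spondin, Noggin and EGF.

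By the labels there were 2 libraries of untreated Apc mutant and 2 of untreated wild type organoids on day 2. In conditioned medium there were 3 libraries labelled Apc mutant and 3 labelled wild type on day 4, and 3 of each on day 2. Conditioned medium was taken from 3-day-old wild type or Apc-/- cultures. All 12 libraries have a treatment label that gives Apc mutant medium, while their titles (APCCM or WTCM) can name either the cells or the cultures that gave the medium. The design text of the series gives another layout, with untreated organoids on days 2 and 4 and no conditioned medium on day 4. The labels of the libraries were followed, and genotypes were compared within a medium and day.

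Beta-catenin, encoded by Ctnnb1, is made continuously and, without a Wnt signal, is caught by a scaffold of Apc and Axin1. There the kinases encoded by Csnk1a1 and Gsk3b phosphorylate it, and the beta-TrCP subunit of a ubiquitin ligase, encoded by Btrc, marks it for degradation. Beta-catenin that escapes enters the nucleus and binds TCF/LEF proteins, which sit on Wnt target genes and otherwise recruit Groucho/TLE repressors. In the intestinal crypt this pathway maintains stem cells, and loss of Apc is the usual first step of intestinal tumours.

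Each untreated library held 8325979 to 13027701 gene counts and each conditioned medium library 17986815 to 29152692. Levels are CPM, read counts scaled to a common library size (here with TMM factors), and differences are log2 fold changes with their standard error (SE). A gene was called at an adjusted p under 0.05 in edgeR's quasi-likelihood test, with p-values adjusted by Benjamini-Hochberg over all genes tested. Nothing states that replicates were separate cultures or animals, so p-values measure the spread between these libraries, which may be technical. Nkd1, a feedback inhibitor and Wnt target, stood at 440 and 533 CPM in the untreated Apc mutant libraries, against 1.80 and 1.31 CPM in the untreated wild type ones. In conditioned medium Nkd1 reached at most 4.72 CPM and Notum, a secreted Wnt antagonist, at most 1.03 CPM in all 12 libraries. Both targets go against the label of the 6 libraries labelled Apc mutant in conditioned medium, so each difference between labels there rests on the label alone. Untreated and conditioned medium libraries also stood apart in RNA content. Histone genes summed to 41.5 to 46.3 CPM in untreated libraries, against 4432 to 6164 CPM in conditioned medium. Xist, the RNA of the inactive X chromosome, stood at 1940 to 3710 CPM in untreated and 1.18 to 11.4 CPM in conditioned medium libraries, while the Y-linked Ddx3y stood at most at 0.164 CPM in untreated and at 86.9 to 129 CPM in conditioned medium libraries. Medium, library content and the sex of the source cannot be told apart in any contrast between the media. Replicate 1 labelled wild type on day 4 stood apart within its group, with a chi-square over genes of 39.9 and 42.2 per degree of freedom against the other replicates. Every other pair within a group lay between 3.30 and 6.08.

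Without conditioned medium, 8 of the 10 genes were higher in Apc mutant than in wild type organoids and 0 were lower. Among all genes tested, 32.4% were higher and 30.1% were lower in this comparison. The range was wide: Lef1 and Tcf7l1 were nearly absent from wild type libraries, Tcf7, Apc and Btrc were 4.36-, 3.21- and 2.91-fold higher in Apc mutant libraries, and Tcf7l2, Csnk1a1 and Ctnnb1 1.32-, 1.31- and 1.30-fold higher. Axin1 and Gsk3b were not called. The median log2 fold change was 0.97 over the 10 genes and 0 over all genes tested. Scaled by library size alone, the median of all genes shifted by 0.17 and 6553 genes were higher and 3900 lower, in place of 5348 higher and 4971 lower. In bulk RNA, fewer cells of a type and less RNA per cell cannot be told apart.

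**Figure D1:**
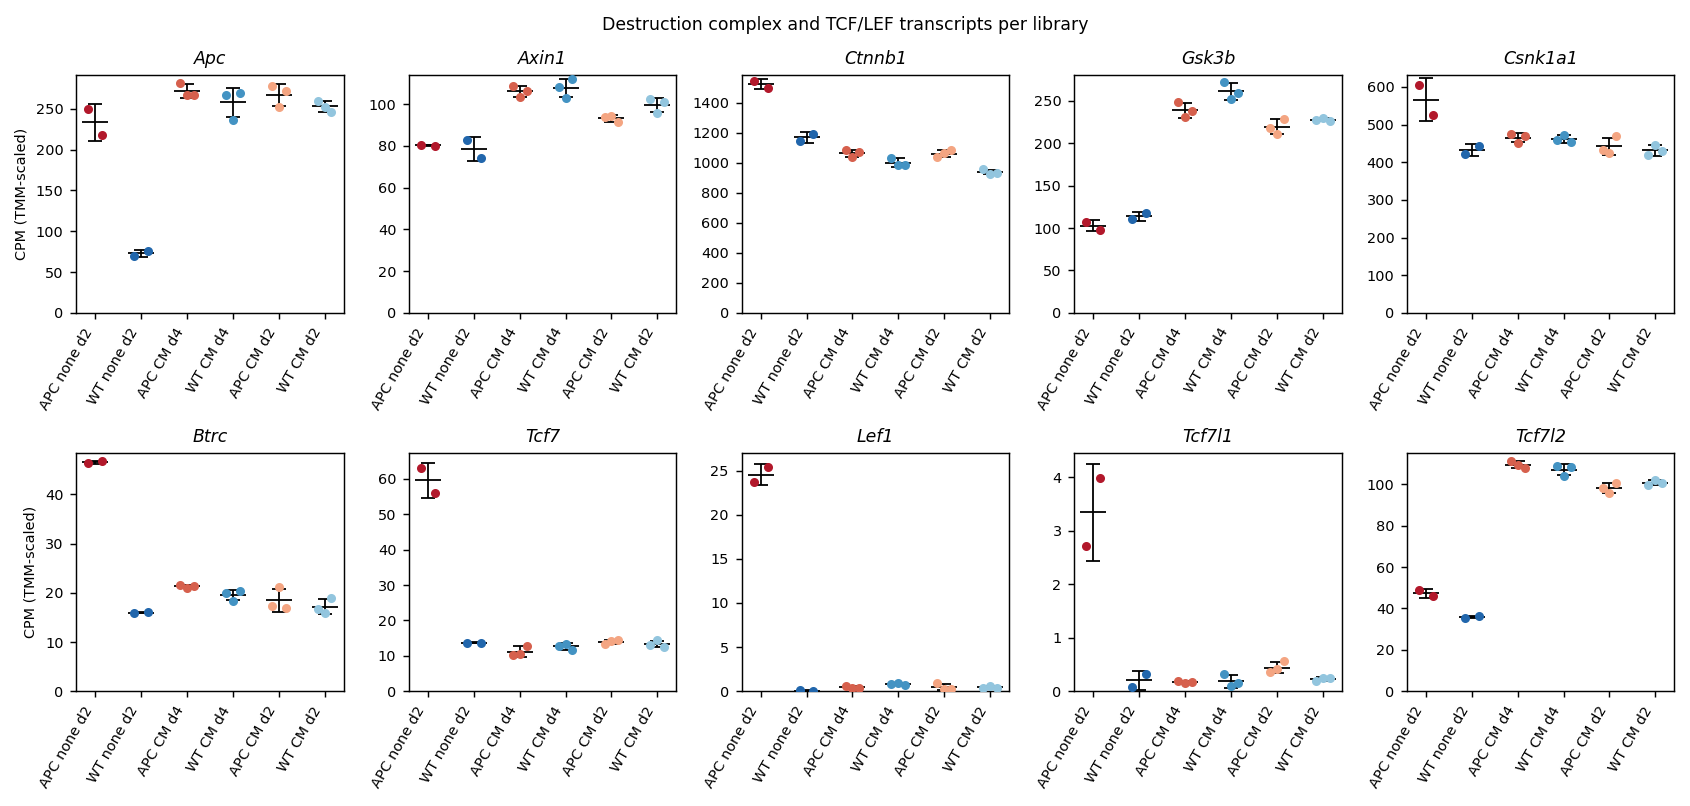
Level of each of the 10 genes in every library, in TMM-scaled CPM on linear axes that start at 0. APC and WT are the Apc mutant and wild type labels, points are libraries, long bars are group means and short bars are the SD (n = 2 for the untreated groups, marked none, and n = 3 for the conditioned medium groups, marked CM), with d2 and d4 for the culture day. Apc stood at 69.3 and 76.2 CPM in untreated wild type, below every other library, and Lef1 stood above 1 CPM only in untreated Apc mutant libraries, at 23.7 and 25.4 CPM.

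Of Apc and Axin1, the scaffold genes among the 10, Apc was called and Axin1 was not. Apc (ENSMUSG00000005871, GRCm38 chromosome 18, 34220924 to 34322552) stood at 249 and 218 CPM in untreated Apc mutant libraries, against 69.3 and 76.2 CPM in untreated wild type (log2 fold change 1.68, SE 0.08, adjusted p = 2.21e-15). The groups did not overlap, as was so for 75.7% of all genes in this comparison, and the wild type libraries were the low ones. In conditioned medium Apc lay between 237 and 281 CPM in all 12 libraries, of either label and on both days, close to the untreated mutant level. The tables count reads over the whole gene and do not set the recombined exon apart, so Apc counts check neither the deletion nor the labels. Axin1, the scaffold that limits assembly of the complex, stood at 80.3 and 80.2 CPM in untreated Apc mutant libraries, against 82.7 and 74.3 CPM in untreated wild type ones. Its groups overlapped and it was not called (log2 fold change 0.03, SE 0.07, adjusted p = 0.744). Scaled by library size alone, Axin1 was called higher, with a log2 fold change of 0.20 that stood near the shift of the median gene.

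Of the kinases, Csnk1a1 was called and Gsk3b was not. Csnk1a1 (ENSMUSG00000024576, also on chromosome 18, 61555274 to 61590061) encodes casein kinase 1 alpha, which places the priming phosphate on beta-catenin. It stood at 606 and 525 CPM in untreated Apc mutant libraries, against 421 and 444 CPM in wild type (log2 fold change 0.39, SE 0.07, adjusted p = 1.87e-05), with both mutant libraries higher. Gsk3b, the kinase that acts after priming, stood at 108 and 98.2 CPM in Apc mutant libraries, against 110 and 118 CPM in wild type. The groups did not overlap, like those of 75.7% of all genes, yet Gsk3b was not called (log2 fold change -0.15, SE 0.07, adjusted p = 0.0596). It was called lower under 2 of the other tools and scalings and without either replicate 4 of the untreated groups, with adjusted p between 0.0235 and 0.0473 in those 4 fits.

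Ctnnb1, which encodes beta-catenin, was the most abundant of the genes. It stood at 1545 and 1498 CPM in untreated Apc mutant libraries, against 1143 and 1192 CPM in wild type (log2 fold change 0.38, SE 0.05, adjusted p = 6.34e-07). Ulk4 lies on the opposite strand and shares 759 exon bases with Ctnnb1, and it had 64 to 72 counts in Apc mutant libraries and 1 in each wild type library, against at least 10922 counts of Ctnnb1. Btrc, the substrate receptor of the ligase, stood at 46.3 and 46.8 CPM in Apc mutant libraries, against 15.94 and 16.04 CPM in wild type (log2 fold change 1.54, SE 0.11, adjusted p = 6.51e-12). The groups lay far apart beside the spread within them. In all 12 conditioned medium libraries Btrc lay between 15.9 and 21.7 CPM, at or just above its untreated wild type level.

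Per kilobase of merged exons, the levels of the complex genes in untreated Apc mutant libraries ran from Ctnnb1 at 293 ± 6.33 CPM per kb (SD, n = 2) through Csnk1a1 at 53.8 ± 5.44, Axin1 at 21.0 ± 0.0353, Apc at 14.5 ± 1.39 and Gsk3b at 10.5 ± 0.680 to Btrc at 2.75 ± 0.0209. In untreated wild type libraries the order was Ctnnb1 at 225 ± 6.63 CPM per kb, Csnk1a1 at 41.2 ± 1.55, Axin1 at 20.5 ± 1.54, Gsk3b at 11.6 ± 0.524, Apc at 4.51 ± 0.300 and Btrc at 0.946 ± 0.00410. Apc and Gsk3b thus held each other's place in the 2 genotypes, and all neighbours in both orders lay further apart than their SDs. Merged exons of Btrc span 16908 bases and its longest transcript 4720, and those of Csnk1a1 10502 and 4083 bases, so the levels per kb of both depend strongly on which length is used.

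The TCF/LEF factors showed both the largest and among the smallest differences. Tcf7, which encodes TCF1, is known as a Wnt target and gives isoforms with and without the beta-catenin-binding end. It stood at 63.2 and 56.0 CPM in untreated Apc mutant libraries, against 13.7 and 13.5 CPM in wild type (log2 fold change 2.13, SE 0.12, adjusted p = 4.21e-14). Both mutant libraries lay above every other library of the series, and the wild type ones lay within the range of the conditioned medium libraries. Lef1, an activating member that is also a Wnt target, had 342 and 415 counts (23.7 and 25.4 CPM) in Apc mutant libraries, against 1 and 0 counts in wild type. The ratio of its summed counts, each per scaled library size, was 526 with an exact 95% interval of 94.2 to 20800 that covers counting error only (log2 fold change 8.85, SE 0.48, adjusted p = 2.74e-14). The SE implies a narrower range than this interval and does not measure the precision of a fold against 1 and 0 counts. In conditioned medium Lef1 had 5 to 21 counts per library, so the untreated Apc mutant libraries alone were high.

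Tcf7l1, which encodes TCF3, a factor known mainly as a repressor, had 39 and 65 counts (2.70 and 3.98 CPM) in untreated Apc mutant libraries, against 1 and 3 counts (0.0818 and 0.327 CPM) in wild type. The count ratio was 18.1 with an exact 95% interval of 6.85 to 67.6 (log2 fold change 4.11, SE 0.54, adjusted p = 3.27e-07). Here too the SE implies a narrower range than the interval. Even where it was high, Tcf7l1 had the lowest level per kb of the 4 factors. Tcf7l2, which encodes TCF4 and is needed to keep the crypt stem cell compartment, stood at 49.0 and 45.8 CPM in Apc mutant libraries, against 35.6 and 36.2 CPM in wild type (log2 fold change 0.40, SE 0.07, adjusted p = 1.82e-05). Tcf7l2 was the single factor whose level in conditioned medium lay above both untreated groups, with 95.9 to 112 CPM in all 12 libraries. The antisense genes Gm43352 and Gm15401 share 1208 exon bases with Lef1 and 179 with Tcf7l1, and the strand setting of the counting is not given in the sources used here. Gm43352 had 3 to 8 counts and Gm15401 2 counts per untreated Apc mutant library, against 0 and 5 counts per untreated wild type library.

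Windows around RefSeq start sites (GRCm38.p6, 250 bases before and 50 from the start on) were on hand for 6 of the 10 genes, and some are shown for Lef1, Tcf7 and Tcf7l1, the 3 factors with the largest differences. Capitals mark the hexamers CTTTGA or CTTTGT, the core of the sequence that TCF/LEF proteins bind, or their reverse complements TCAAAG or ACAAAG. No hexamer in these windows overlapped another. Of all 32851 such windows of mouse genes, 31.2% held at least 1 hexamer and 1.14% held at least 3. The first Lef1 window (chr3:131110047-131110346, plus strand) held 0. A window at a start site inside the Lef1 gene (chr3:131156044-131156343, plus strand) held 3, which lay 180, 146 and 120 bases before the start. In human LEF1 an internal promoter is known to give a product without the beta-catenin-binding end, and counts per gene cannot tell such forms apart. The first Tcf7 window (chr11:52282965-52283264, minus strand) held 0, as did the other 2 windows of Lef1 and the second of Tcf7, which are not shown. First means the most upstream window on hand, so a promoter further upstream, of Tcf7 or Lef1, would not be covered. The Tcf7l1 window (chr6:72788996-72789295, minus strand) held 1, which lay 28 bases before the start. Each is given 5′ to 3′ on the strand of its gene.
Lef1, first start: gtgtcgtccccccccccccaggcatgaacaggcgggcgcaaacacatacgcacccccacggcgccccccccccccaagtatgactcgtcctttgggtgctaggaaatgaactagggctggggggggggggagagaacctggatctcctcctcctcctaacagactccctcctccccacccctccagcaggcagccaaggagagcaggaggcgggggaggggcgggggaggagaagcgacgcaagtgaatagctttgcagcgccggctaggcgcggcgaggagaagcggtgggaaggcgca
Lef1, internal start: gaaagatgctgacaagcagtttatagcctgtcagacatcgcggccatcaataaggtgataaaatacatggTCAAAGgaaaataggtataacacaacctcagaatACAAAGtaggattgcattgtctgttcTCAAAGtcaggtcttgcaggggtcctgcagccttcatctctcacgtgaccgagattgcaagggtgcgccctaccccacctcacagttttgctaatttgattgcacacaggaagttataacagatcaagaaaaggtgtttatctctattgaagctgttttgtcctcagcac
Tcf7, first start: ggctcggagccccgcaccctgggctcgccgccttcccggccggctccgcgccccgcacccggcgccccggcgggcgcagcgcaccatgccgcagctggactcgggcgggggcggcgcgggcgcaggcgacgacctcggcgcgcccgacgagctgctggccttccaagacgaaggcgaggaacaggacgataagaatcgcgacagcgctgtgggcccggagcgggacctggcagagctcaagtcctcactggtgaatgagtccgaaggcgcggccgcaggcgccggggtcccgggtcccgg
Tcf7l1: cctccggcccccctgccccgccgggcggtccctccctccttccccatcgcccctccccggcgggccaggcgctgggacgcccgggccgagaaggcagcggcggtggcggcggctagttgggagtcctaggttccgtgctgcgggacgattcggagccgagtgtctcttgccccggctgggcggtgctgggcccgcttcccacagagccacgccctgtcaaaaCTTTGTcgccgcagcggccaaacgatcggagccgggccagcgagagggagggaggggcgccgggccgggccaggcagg
Of the 12 windows examined, 4 held a hexamer, including 1 of Gsk3b and 1 at an internal start of Tcf7l2. A hexamer in a window is a match of letters and not a measured binding site.

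**Figure D2:**
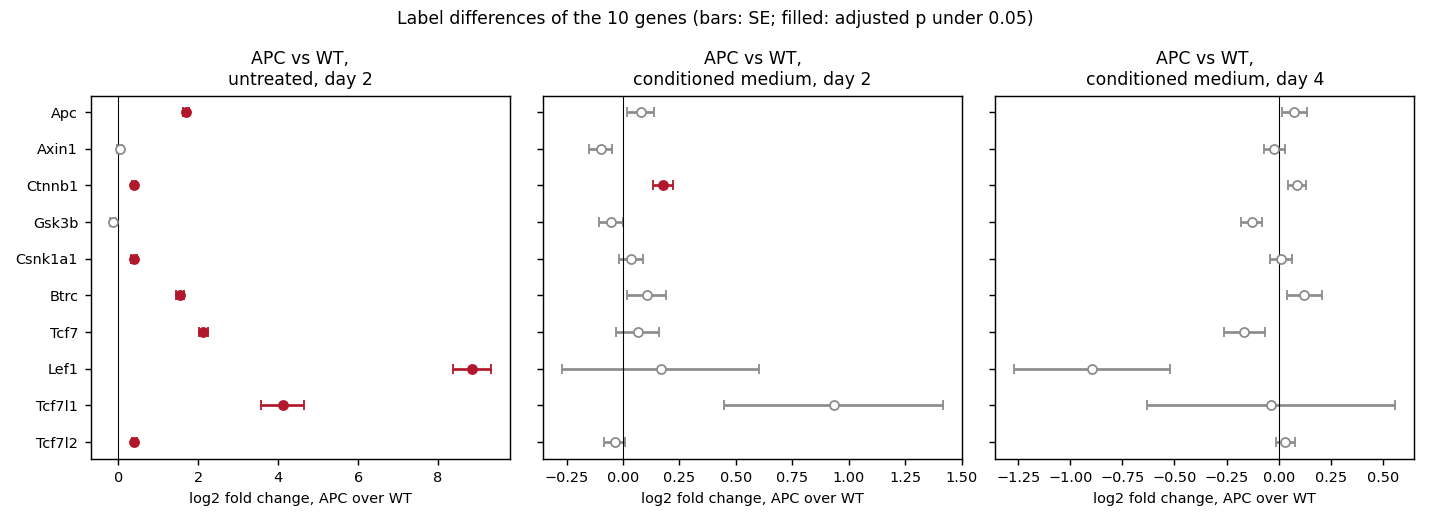
Log2 fold change of Apc mutant over wild type labels for each of the 10 genes, in untreated organoids (left), in conditioned medium on day 2 (middle) and in conditioned medium on day 4 (right), each panel with its own axis. Points are estimates of the fit over all groups, bars are the SE, and filled points have an adjusted p under 0.05: 8 genes on the left, Ctnnb1 in the middle and 0 on the right. The bars of Lef1 and Tcf7l1 on the left are too narrow, since their counts in wild type were near 0.

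The make-up of the TCF/LEF family differed between the untreated genotypes, and between untreated and conditioned medium libraries. Those media also differed in library content and in the sex of the source, which cannot be told apart from the medium. As a share of the summed CPM per kb of merged exons, Tcf7 made up 71.5% ± 1.97 (SD, n = 2) in untreated Apc mutant libraries and 55.6% ± 0.804 in untreated wild type. Tcf7l2 made up 17.0% ± 0.160 in untreated Apc mutant and 43.8% ± 0.403 in untreated wild type libraries. Lef1 made up 8.82% ± 0.929 in untreated Apc mutant and 0.0499% ± 0.0706 in untreated wild type libraries, and Tcf7l1 2.71% ± 0.877 and 0.557% ± 0.472 of the same sums in Apc mutant and wild type. In conditioned medium Tcf7l2 led in every library: it made up 74.2% ± 2.64 (SD, n = 3) in those labelled Apc mutant and 71.2% ± 2.01 in those labelled wild type on day 4, and 67.1% ± 0.711 and 68.9% ± 1.43 in those labels on day 2. These are descriptions with no test, and they rest on the exon length used. With the longest transcript in place of merged exons, Tcf7l2 led in untreated wild type libraries as well, with 63.3% against 36.2% for Tcf7, while Tcf7 kept the lead in untreated Apc mutant libraries with 53.9% against 28.6%.

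**Figure D3:**
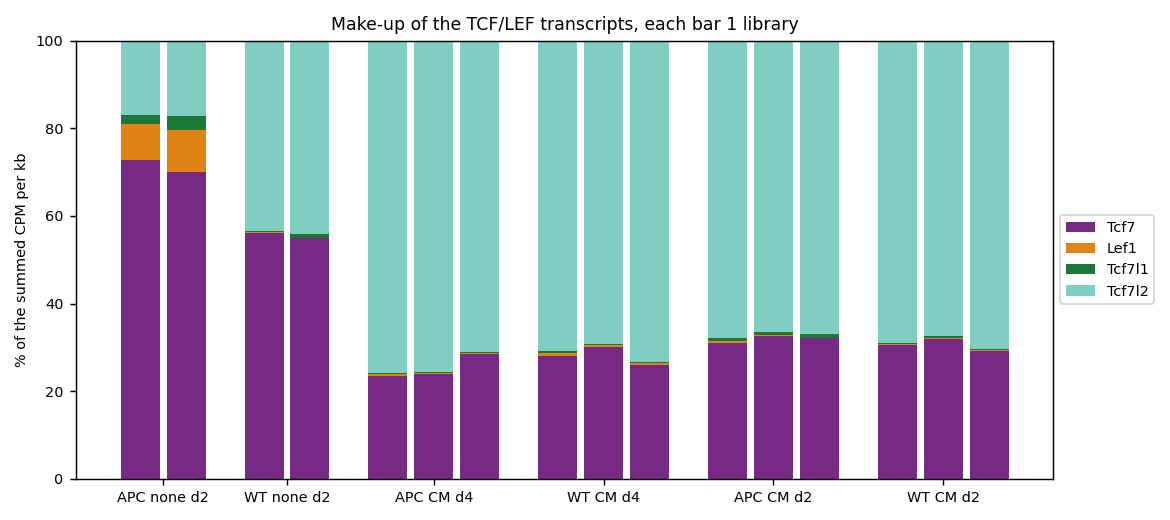
Share of Tcf7, Lef1, Tcf7l1 and Tcf7l2 in their summed CPM per kb of merged exons, in percent, with 1 bar per library and bars grouped by label, medium (none or CM) and day (d2, d4). Tcf7 took 70.1 and 72.8% in the untreated Apc mutant libraries, where Lef1 took 8.17 and 9.48%, and Tcf7l2 took at least 66.5% in each conditioned medium library.

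Markers of other cell types and of differentiated cells were read beside these differences. Of 12 leukocyte markers, Adgre1, Cd3d, Cd3e, Cd3g, Cd52, Cd8a and Il7r were at 0 in both untreated groups. The list summed to 2.84 to 3.12 CPM in Apc mutant and 2.78 to 3.93 CPM in wild type libraries. Most of the Apc mutant sum was Lck, a T cell kinase, at 2.63 to 2.88 CPM in Apc mutant and 0.654 to 1.53 CPM in wild type libraries. Of 8 fibroblast markers, 4 were detected in each untreated group, Col1a2, Col3a1, Dcn and Lum were at 0, and the list summed to 271 to 287 CPM in Apc mutant and 5.35 to 5.97 CPM in wild type. Nearly all of that sum was Vim, at 270 to 285 CPM in Apc mutant and 4.69 to 5.64 CPM in wild type libraries. The epithelial list, with Krt20 at 0 in Apc mutant libraries, summed to 3090 to 3270 CPM there and to 4620 to 4780 CPM in wild type. The sums of the differentiated cell lists were far lower in Apc mutant libraries, though not every marker was: 7 enterocyte markers summed to 308 to 314 CPM, against 8000 to 8080 CPM in wild type, and 5 goblet cell markers to 72.1 to 84.1 CPM, against 2520 to 2740 CPM in wild type. Nearly all of the enterocyte sum in Apc mutant libraries was Anpep, a peptidase, which was itself higher there, at 295 to 297 CPM, than in wild type libraries, at 134 to 145 CPM. Paneth cell markers (4) summed to 751 to 796 CPM in Apc mutant and 6270 to 6510 CPM in wild type, and enteroendocrine markers (6, with Gcg, Gip and Sct at 0 in Apc mutant) to 4.09 to 4.28 CPM in Apc mutant and 420 to 421 CPM in wild type. Mmp7 went the other way from the Paneth sum, with 519 to 554 CPM in Apc mutant and 128 to 140 CPM in wild type libraries. The crypt base stem cell list (5) summed to 1830 to 1920 CPM in Apc mutant and 2630 to 2830 CPM in wild type libraries. Within it Olfm4 stood at 0.208 to 0.306 CPM in Apc mutant and 1893 to 2071 CPM in wild type, while Smoc2, Lgr5, Ascl2 and Axin2 were higher in Apc mutant libraries, Smoc2 at 826 to 835 CPM there and 416 to 446 CPM in wild type. The part of this cell make-up in the differences of the 10 genes was not tested.

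Position on the chromosomes was read beside Btrc and Tcf7l2, which both lie on chromosome 19. The 553 tested genes of chromosome 19 had a median log2 fold change of 0.53 between untreated Apc mutant and wild type organoids, and 56.8% of them were called higher. The medians of all other chromosomes lay between -0.09 and 0.09. In conditioned medium the chromosome 19 median was -0.015 on day 4 and -0.03 on day 2. Btrc stood 1.02 above its chromosome median, and 15.9% of the chromosome's genes had a larger log2 fold change. Tcf7l2 differed from it by -0.12, with 55.0% of the genes larger, so its difference was no larger than that of the middle gene of its chromosome. The chromosome 18 genes, among them Apc and Csnk1a1, had a median of 0.02. What shifts chromosome 19 was not tested.

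**Figure D4:**
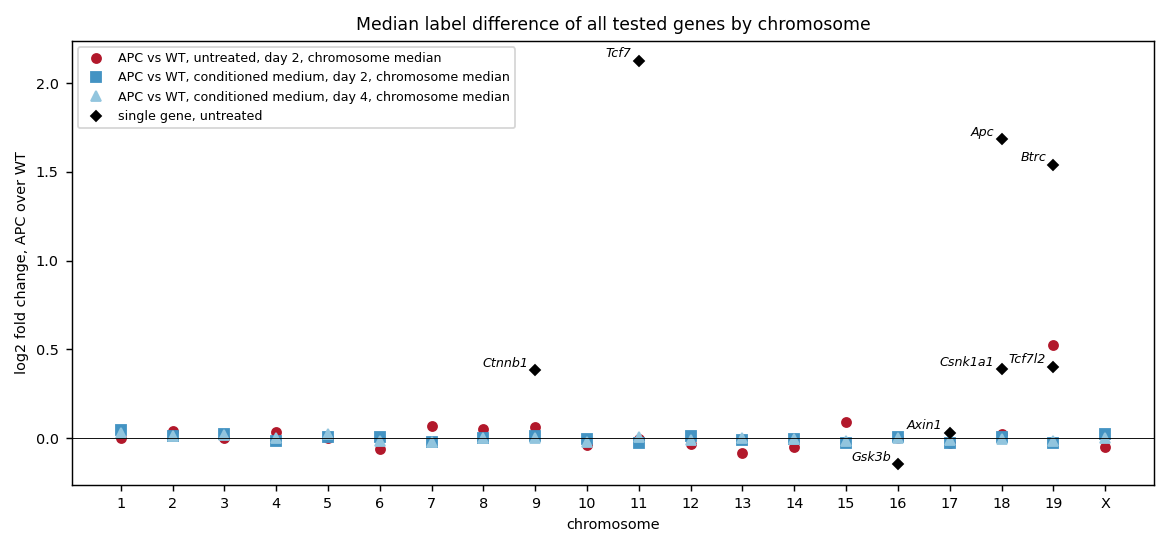
Median log2 fold change, Apc mutant over wild type labels, of all tested genes on each chromosome (horizontal axis) for the 3 comparisons, with single genes in the untreated comparison as diamonds. Lef1 and Tcf7l1, at 8.85 and 4.11, lie above the axis and are not drawn. Chromosome 19 stands at 0.53 in untreated organoids, and Tcf7l2 lies just under that median while Btrc lies above it.

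In conditioned medium on day 2, 1 of the 10 genes was higher in libraries labelled Apc mutant than in those labelled wild type, and 0 were lower. Of all genes tested, 8.54% were higher and 8.15% lower. That gene was Ctnnb1, at 1036, 1064 and 1082 CPM in libraries labelled Apc mutant, against 956, 927 and 931 CPM in those labelled wild type (log2 fold change 0.18, SE 0.04, adjusted p = 0.00495). All libraries labelled Apc mutant were higher, and the call held without any 1 of the 6 libraries. Axin1 and Tcf7l1 also did not overlap between the labels, which makes 3 of 10 against 34.5% of all genes, but neither was called. Axin1 stood at 93.8, 94.5 and 91.5 CPM in libraries labelled Apc mutant, against 102, 95.9 and 101 CPM in those labelled wild type (log2 fold change -0.10, SE 0.05, adjusted p = 0.205). Tcf7l1 had 7, 7 and 11 counts in libraries labelled Apc mutant, against 4, 5 and 5 counts in those labelled wild type, too few to read a difference. Apc, Gsk3b, Csnk1a1, Btrc, Tcf7, Lef1 and Tcf7l2 had log2 fold changes between -0.05 and 0.17. Scaled by library size alone, 1671 of all genes were higher and 918 lower, in place of 1410 higher and 1345 lower, and Ctnnb1 alone was still called.

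On day 4, 0 of the 10 genes were called between the labels by edgeR's quasi-likelihood test, whereas 15.6% of all genes were called, 7.83% higher and 7.80% lower. At an unadjusted p under 0.05 there were 3, Ctnnb1, Gsk3b and Lef1. The share of all genes at that threshold was not taken, so the 3 have no background. DESeq2 called 1, Ctnnb1, beside 1296 of all genes higher and 1077 lower. Ctnnb1 stood at 1083, 1035 and 1069 CPM in libraries labelled Apc mutant, against 1033, 982 and 982 CPM in those labelled wild type (log2 fold change 0.09, SE 0.04, adjusted p = 0.175 by edgeR and 0.0452 by DESeq2). The order of the labels was that of day 2, with a gap between the groups that was smaller than the spread within either. Gsk3b stood at 248, 231 and 238 CPM in libraries labelled Apc mutant, against 272, 252 and 260 CPM in those labelled wild type (log2 fold change -0.13, SE 0.05, adjusted p = 0.0936). Lef1 had 13, 7 and 8 counts in libraries labelled Apc mutant, against 15, 21 and 20 counts in those labelled wild type (log2 fold change -0.90, SE 0.37, adjusted p = 0.114). With Btrc, 4 of the 10 genes did not overlap between labels, against 34.9% of all genes. Leaving out replicate 1 labelled wild type, which stood apart, the count of called members was again 0, beside 2025 of all genes. Scaled by library size alone, Ctnnb1 was called, and 1744 of all genes were higher and 928 lower, in place of 1293 higher and 1287 lower.

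Between the days, 2 of the 10 genes were higher and 1 was lower on day 4 than on day 2 in libraries labelled Apc mutant, where 12.2% of all genes were higher and 11.7% lower. In conditioned medium the libraries of each day form a separate run of records with titles of another style. Day and any batch can therefore not be told apart. DESeq2 called 4 of the 10, beside 1939 of all genes higher and 1642 lower. With scaling by library size alone, 1717 of all genes were higher and 2173 lower, in place of 2007 higher and 1939 lower, and the count of members was the same. Axin1 stood at 109, 103 and 107 CPM on day 4, against 93.8, 94.5 and 91.5 CPM on day 2 (log2 fold change 0.19, SE 0.05, adjusted p = 0.00842), with every day 4 library higher. Tcf7l2 stood at 112, 110 and 108 CPM on day 4, against 98.2, 95.9 and 101 CPM on day 2 (log2 fold change 0.16, SE 0.05, adjusted p = 0.0157). Tcf7 stood at 10.3, 10.4 and 12.9 CPM on day 4, against 13.4, 14.1 and 14.5 CPM on day 2 (log2 fold change -0.31, SE 0.10, adjusted p = 0.0226). None of these 3 genes overlapped between the days, but neither did Gsk3b and Tcf7l1, which were not called. The share of all genes without overlap was not taken between the days. Only the Axin1 call held without any 1 library. The Tcf7 call was lost without replicate 2 or 3 of day 2 (adjusted p = 0.0551 and 0.0730) and without replicate 1 or 2 of day 4 (0.109 and 0.101). The Tcf7l2 call was lost without replicate 2 of day 2 (adjusted p = 0.0628), without replicate 1 of day 4 (0.0610) and with no filter on low counts (0.0534).

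In libraries labelled wild type, 1 of the 10 genes was higher on day 4, where 12.5% of all genes were. Here too day and any batch cannot be told apart. Gsk3b stood at 272, 252 and 260 CPM on day 4, against 228, 229 and 226 CPM on day 2 (log2 fold change 0.20, SE 0.05, adjusted p = 0.00604), and every day 4 library lay above every day 2 library. In the libraries labelled Apc mutant Gsk3b differed by 0.12 between the days (SE 0.05, adjusted p = 0.0889), and DESeq2 called it there (adjusted p = 0.0429). Btrc was also called higher on day 4 without 1 library of day 2, in libraries labelled Apc mutant without replicate 2 (adjusted p = 0.0106) and in those labelled wild type without replicate 3 (0.0461). DESeq2 also called Ctnnb1 in libraries labelled wild type (adjusted p = 0.0373). Scaled by library size alone, 1616 of all genes were higher and 2345 lower on day 4, in place of 2059 higher and 1921 lower. The difference between labels was itself compared between the days: 0 of the 10 genes were called by edgeR, 0 had an unadjusted p under 0.05 and 0 were called by DESeq2, while edgeR called 2.13% of all genes. A gene called on only 1 day or under only 1 label was therefore not shown to differ between them.

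The difference between the labels was larger without conditioned medium than with it, on day 2, for 8 of the 10 genes, where 26.4% of all genes had such a positive contrast. The contrast, untreated difference minus conditioned medium difference on the log2 scale, was 1.60 for Apc (SE 0.10, adjusted p = 8.03e-13), 2.06 for Tcf7 (SE 0.15, adjusted p = 2.58e-11) and 1.44 for Btrc (SE 0.14, adjusted p = 3.93e-09). These are the 3 genes with ample counts whose untreated difference was large. For Ctnnb1 it was 0.20 (SE 0.07, adjusted p = 0.0125), and that call was lost without replicate 4 of untreated wild type (adjusted p = 0.0592). Scaled by library size alone, 5308 of all genes had a positive and 3532 a negative contrast, in place of 4360 positive and 4404 negative. Apc in conditioned medium stood near its untreated mutant level under both labels, and the untreated wild type libraries were the low ones. For Lef1 and Tcf7 the untreated mutant libraries were the high ones. These levels are set side by side across media, where medium, library content and the sex of the source cannot be told apart. Nkd1 and Notum also go against the Apc mutant label in conditioned medium. What gives the contrasts was not tested.

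The genes around the complex were read from lists of its other parts. Of 20 other genes of beta-catenin turnover, 19 were tested, since Apc2 did not pass the filter. Between untreated Apc mutant and wild type organoids 10 were higher, 1 was lower and 8 were not called, with a median log2 fold change of 0.29 beside 0 for all genes. Of all genes 62.5% were called, 32.4% higher and 30.1% lower, so the share called was near that of all genes. Axin2, the feedback scaffold and Wnt target, stood at 724 ± 74.3 CPM (SD, n = 2) in Apc mutant and 165 ± 13.1 CPM in wild type organoids (log2 fold change 2.13, SE 0.08, adjusted p = 7.33e-18). Csnk1e, a casein kinase 1 family member, differed by 1.54 (SE 0.08) and Tnks2, a tankyrase that marks Axin for degradation, by 1.43 (SE 0.07). Tnks2 also lies on chromosome 19. Frat2, known to bind and inhibit Gsk3, was the gene that was lower, at 10.1 ± 0.628 CPM in Apc mutant and 24.7 ± 2.66 CPM in wild type organoids (log2 fold change -1.30, SE 0.11, adjusted p = 2.42e-10), although it lies on chromosome 19 as well.

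Of 21 nuclear cofactors, 10 were higher in untreated Apc mutant organoids, 5 lower and 6 not called, with a median of 0.16, beside the same 32.4% higher and 30.1% lower among all genes. Tle3, a Groucho-type corepressor, stood at 118 ± 16.1 CPM in Apc mutant and 40.7 ± 7.74 CPM in wild type organoids (log2 fold change 1.52, SE 0.10, adjusted p = 2.71e-12). Pygo1, a coactivator that joins beta-catenin through Bcl9, had 10 and 7 counts in Apc mutant libraries and 0 in all other libraries, too few to give a fold. Of the 4 adhesion partners of beta-catenin, 3 were higher and 0 lower, by less than 0.40 on the log2 scale, and Cdh1, which encodes E-cadherin, was not called (log2 fold change -0.11, adjusted p = 0.0646). Of the 15 Wnt target readouts 14 were higher and 0 lower, with a median of 1.84. The largest were Notum at 9.96, Nkd1 at 8.25 and the receptor gene Tnfrsf19 at 5.74, followed by Rnf43 at 2.73, Axin2 at 2.13, Ascl2 at 2.03, Znrf3 at 1.96 and Sp5 at 1.84.

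**Figure D5:**
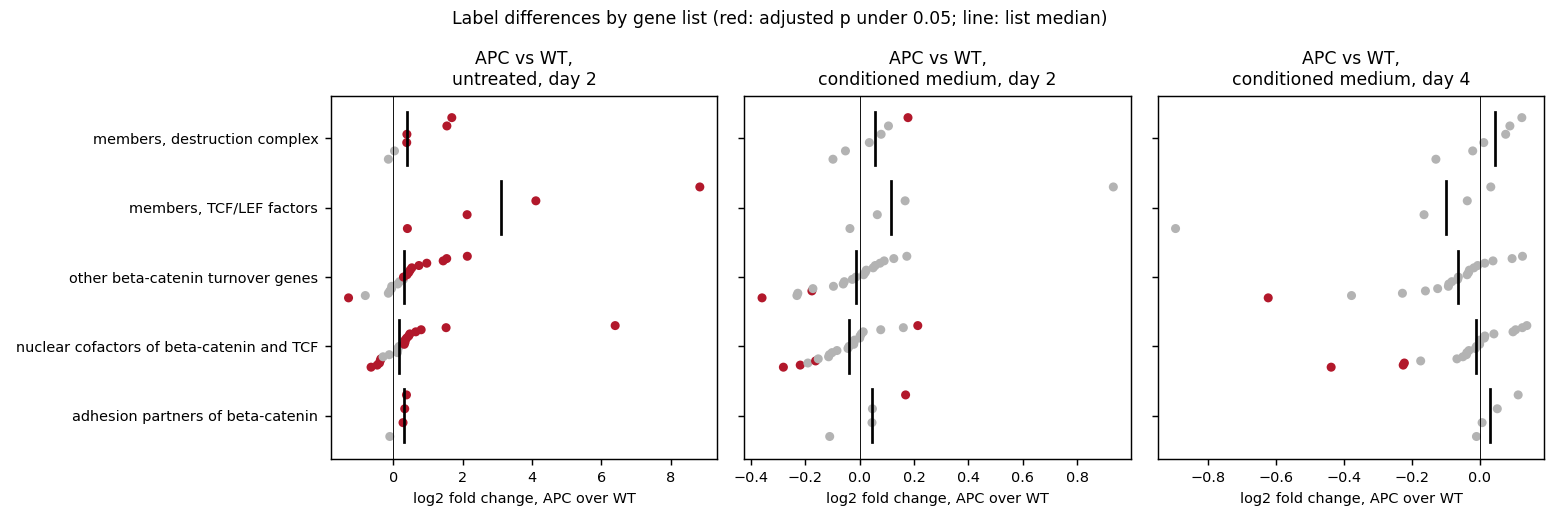
Log2 fold change of Apc mutant over wild type labels for every tested gene of the 2 member groups and of 3 lists of related genes, in the 3 label comparisons, each panel with its own axis. Red points have an adjusted p under 0.05 and the vertical strokes are list medians. The far point of the nuclear cofactors in the left panel is Pygo1, fitted against 0 counts. In the left panel 10 of 19 turnover genes and 10 of 21 cofactors were higher, and in the middle and right panels at most 1 gene of any of the 5 groups was.

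In conditioned medium few of these genes were called. Among all genes, 7.83% were higher and 7.80% lower in libraries labelled Apc mutant on day 4, and 8.54% higher and 8.15% lower on day 2, and the counts of turnover genes and cofactors stand near these shares. On day 4, 1 of 19 turnover genes was lower and 0 higher, 3 of 21 cofactors were lower and 0 higher, 0 of 4 adhesion partners were called, and 9 of 15 readouts were lower and 1 higher. On day 2, 2 turnover genes were lower and 0 higher, 3 cofactors were lower and 1 higher, 1 adhesion partner was higher, and 6 readouts were lower and 2 higher. Axin2 stood at 183 ± 10.6 CPM (SD, n = 3) in libraries labelled Apc mutant and 282 ± 8.11 CPM in those labelled wild type on day 4 (log2 fold change -0.62, SE 0.06, adjusted p = 5.50e-08), and at 269 ± 12.4 and 346 ± 9.77 CPM in those labels on day 2 (-0.36, SE 0.06, adjusted p = 0.000117). Its direction between the labels was thus opposite to that in untreated organoids. Nkd1 and Notum go against the Apc mutant label in conditioned medium, so these differences may not compare the same thing. Gsk3a, the kinase closest to Gsk3b, was lower on day 2 by 0.18 (log2 fold change -0.18, SE 0.05, adjusted p = 0.0225).

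Among the cofactors, the corepressor Tle1 was lower in libraries labelled Apc mutant on day 4 (log2 fold change -0.44, SE 0.06, adjusted p = 1.53e-05) and on day 2 (-0.28, SE 0.06, adjusted p = 0.00201). Tle4, of the same family, and Nlk, a kinase that phosphorylates TCF/LEF proteins, were lower on day 4 by 0.23 and 0.22 (log2 fold changes -0.23 and -0.22). On day 2 Ctnnbip1, an inhibitor that binds beta-catenin, was lower (-0.22, SE 0.07), and Tbl1xr1, a subunit of a corepressor exchange complex, was higher (0.21, SE 0.06). Ctnnd1, which encodes p120 catenin, was higher on day 2 (0.17, SE 0.05). The called readouts with the largest differences were Tnfrsf19 (-1.59), Nkd1 (-1.40) and the stem cell receptor gene Lgr5 (-0.76) on day 4, and Nkd1 (-1.18), Tnfrsf19 (-0.93) and Lgr5 (-0.54) on day 2. Notum had differences of -0.77 on day 4 and 0.83 on day 2 at about 1 CPM or less, and was not called (adjusted p = 0.164 and 0.176). The crypt base stem cell list summed to 1900 to 2080 CPM in libraries labelled Apc mutant and 3660 to 3800 CPM in those labelled wild type on day 4, and to 2660 to 2850 and 3490 to 3720 CPM in those labels on day 2. On day 2 enteroendocrine sums were 764 to 880 CPM under the Apc mutant label and 463 to 485 CPM under the wild type label. Goblet sums were 5130 to 6020 and 3860 to 4340 CPM, and Paneth sums 5210 to 5650 and 3920 to 4080 CPM. On day 4 enteroendocrine sums were again higher, goblet sums overlapped and Paneth sums were lower (4680 to 5000 and 5060 to 5870 CPM). Enterocyte sums overlapped on day 2 and were lower on day 4. The part of these cell lists in the differences above was not tested.

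Genes with the pattern most like each TCF/LEF factor were found over the 12 conditioned medium libraries by Pearson's r of log2(CPM + 0.5), as a description. These libraries share labels, days and depth, and the factors varied little: the SD over the libraries was 0.16 for Tcf7, 0.34 for Lef1, 0.24 for Tcf7l1 and 0.07 for Tcf7l2 on that scale. The genes most like Tcf7 were ENSMUSG00000102426 (r = 0.956), Snhg3 (0.899) and 4930558J18Rik (0.899). Those most like Lef1 were Vegfc (0.895), Pcdhga7 (0.889) and Snora21 (0.844). All but Vegfc among these 3 averaged under 1 CPM over all 16 libraries, and Lef1 lay under 1 CPM in each conditioned medium library. Those most like Tcf7l1 were Map3k20 (0.935), Rras2 (0.917) and Rcan3 (0.913), while Tcf7l1 itself had 2 to 11 counts per library. Those most like Tcf7l2 were Gm38366 (0.960), Klf13 (0.957) and Syt11 (0.955).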

How the data were processed

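Raw read counts, deposited by the authors as 1 table per library, cover 46078 Ensembl genes. The submitters' processing notes name the build GRCm38 and the tools HTSeq 0.6.1p1, HISAT2 2.1.0 and Trimmomatic 0.36. Neither strand setting nor annotation release is given in the sources used here, and antisense genes that overlap a member could not be separated from it. Reads with several alignments (26.5 to 38.9% of reads per library), outside features (4.78 to 19.2%) or unaligned (2.77 to 9.41%) were counted to no gene and left out. Symbols, exon lengths and coordinates came from GENCODE M21 and gave a symbol for 98.0% of genes.

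All 16 libraries in 6 groups were fitted together with edgeR 4.0.16 (limma 3.58.1, R 4.3.3), TMM scaling and filterByExpr, which left 10 residual degrees of freedom (common biological variation 5.96%). The 7 contrasts were tested with edgeR's quasi-likelihood test and Benjamini-Hochberg adjustment. An SE is the log2 fold change divided by the square root of F. DESeq2 1.42.0 served as an alternative. The script was tested on simulated counts. No 2 libraries of a group agreed within sampling noise. Members, lists and alternatives were chosen with earlier results of these data known. Named were all members, list genes called in untreated organoids with an absolute log2 fold change of at least 1 and no overlap (at most 8 per list), the 3 largest called per list in conditioned medium, and Axin2, Nkd1 and Notum. Intervals cover counting error only.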

Additional observations from a re-analysis of the deposited data

Results flagged for a closer look

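The difference between Apc mutant and wild type labels on day 2 itself differed between untreated and conditioned medium libraries for 8 of the 10 genes. This was read from the contrast of both differences in edgeR's quasi-likelihood test (p-values adjusted by Benjamini-Hochberg). Among all genes tested, 26.4% had a positive and 26.7% a negative contrast. In log2 units, untreated minus conditioned medium, the contrast was 1.60 for Apc, 0.20 for Ctnnb1, 0.35 for Csnk1a1 (adjusted p = 0.00124), 1.44 for Btrc, 2.06 for Tcf7, 8.68 for Lef1 (adjusted p = 4.93e-09), 3.18 for Tcf7l1 (adjusted p = 0.00209) and 0.44 for Tcf7l2 (adjusted p = 9.24e-05). The contrasts of Lef1 and Tcf7l1 are fitted against counts of 0 to 3 in untreated wild type and are no bound. Untreated and conditioned medium libraries differed in histone RNA, Xist and Ddx3y as well, and the part of these in the contrasts was not tested. Nkd1 and Notum go against the Apc mutant label in conditioned medium, so the difference there rests on the label alone.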

How the results depend on the processing

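Over the 10 genes, 983 values under alternatives gave 963 with no change of call, 12 that gained a call, 8 that lost one and 0 that reversed with a call. Of the 963, 38 changed sign with a call in neither setting, and were given no direction. Of the 10 genes, 1 was called between labels on day 4 with library size alone and with DESeq2, in place of 0. These settings called 2672 and 2373 of all genes. Between days in libraries labelled wild type, 2 were called with DESeq2, in place of 1, beside 3619 of all genes. Leaving out 1 library gave 1 to 3 called between days in libraries labelled Apc mutant, beside 3110 to 3429 of all genes. In those labelled wild type it gave 1 to 2, beside 2832 to 3386 of all genes. Between labels in conditioned medium on day 2 it gave 1725 to 2484 of all genes called, where 2755 were called with all libraries. The lowest, 1725, was without replicate 3 labelled Apc mutant. The label by day contrast called 568 of all genes when only its own groups were fitted, in place of 351. With the length of the longest transcript, Tcf7 made up 53.9% (untreated Apc mutant), 36.2% (untreated wild type), 13.2% and 14.9% (labelled Apc mutant and wild type, day 4), 17.5% and 16.5% (day 2). Tcf7l2 then made up 28.6%, 63.3%, 86.3%, 84.2%, 81.7% and 82.9% in the same order. Among genes with a mean CPM of at least 10, the median was -0.0502 on chromosome 18 and 0.463 on chromosome 19. Same-numbered replicates did not deviate together (r between -0.08 and 0.06), so no pairing by number was seen. With groups of 2 or 3 libraries this cannot exclude a shared animal or preparation. With a replicate block, 8 members were called untreated, 0 and 1 between labels in conditioned medium on days 4 and 2, and 10088 of all genes untreated, in place of 10319. In conditioned medium that block called 2234 and 2327 of all genes on days 4 and 2. Lef1 and Tcf7l1, at 21 counts or fewer per library outside untreated Apc mutant, are limited by depth.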
